A study of Caenorhabditis elegans with 4 samples.

Results

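MML-1 binding regions on chromosome II of Caenorhabditis elegans were taken from 3 deposited peak lists. All 63 combined peaks on II were included, of 396 in the whole combined list. From the list of each ChIP replicate, the peaks on II with a peak number of 3000 or lower were included. These were 474 of 3000 such peaks in replicate 1 and 437 of 3000 in replicate 2. Peak numbers ran nearly in the order of falling score within a replicate (Spearman rho = -0.9989 and -0.9983 over the members), with local exceptions and ties among the highest scores. The members were therefore chosen by chromosome and by peak number, and the numbers, scores and q-values given for them describe the choice. The remaining peaks on II, numbered over 3000, served as background: 4173 in replicate 1 and 4191 in replicate 2.

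The study measured chromatin immunoprecipitation with sequencing in hermaphrodite L3 larvae of strain OP198 raised at 20 °C. The worms carry the mutation unc-119(ed3) and wgIs198, a transgene introduced by bombardment that holds unc-119 and mml-1 fused to TY1, EGFP and FLAG at its C terminus, and chromatin was precipitated with antibodies against GFP. There were 2 ChIP and 2 input samples, all of this 1 genotype, stage and temperature, and the inputs gave no values used here. No label ties the replicates to separate cultures, so their spread may be technical.

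MML-1 is the Mondo-family member of the worm Myc and Mondo network, related to mammalian MondoA and ChREBP. It belongs to the bHLH-leucine zipper class of DNA-binding proteins, pairs with the Max-like protein MXL-2 and binds E-box-type DNA elements. In worms the pair is known for roles in lifespan and in cell migration. Worm autosomes have gene-dense centres with little recombination, flanked by arms that are richer in repeats and recombine more.

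The WS220 span of II covered by the lists ran from 442 to 15271794 and was cut into 3 equal parts by peak midpoint. The left arm ended at 5.09 Mb, the centre lay between 5.09 and 10.2 Mb, and the right arm followed. These names mark equal parts of the span. No map of recombination or gene density set their borders, so they need not match the arms and centre described above. The combined list held 4.13 peaks per Mb of II. The replicate members numbered 31.0 per Mb in replicate 1 and 28.6 per Mb in replicate 2. Combined peaks were short: their median width was 213 bp, with extremes of 1 and 980 bp, and they covered 0.113% of the span. Replicate members were mostly of a single width, 504 bp for 470 of 474 in replicate 1 and 520 bp for 436 of 437 in replicate 2, and covered 1.51% and 1.43% of the span. II held 15.8% of replicate 1 peaks and 14.6% of replicate 2 peaks numbered 3000 or lower, a mean of 15.2% ± 0.872 (SD, n = 2), beside 15.5% and 15.4% of peaks of any number.

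The strongest combined peaks on II, as ordered by q-value here and below, lay in the right arm. The first 5 combined peaks by q-value were all there, as were 7 of the first 10. The q-values are those of the authors' peak caller. The first peak, at 13469005 to 13469984, had q = 2.46e-52 and stood at peak number 18 in both replicates. At 13461810 to 13462694 the q-value was 9.23e-31, and the peak numbers were 25 in replicate 1 and 30 in replicate 2. At 13736518 to 13737427 it was 4.96e-30, with numbers 45 and 33. These regions ranked high in both ChIP samples. The peak at 14042709 to 14043441 had q = 4.56e-28, with numbers 33 and 34. The midpoints of the replicate peaks at these 4 regions lay 13.0 bp, 26.5 bp, 45.0 bp and 32.0 bp apart in the order named, so both replicates placed each region at nearly the same position. These were the 4 lowest-numbered peaks on II in each replicate.

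The combined peak at 11759200 to 11759643 differed from these. It had the second smallest q-value on II (3.97e-35), but its peak number was 556 in replicate 1 and 106 in replicate 2. The replicate midpoints there lay 1 bp apart, so the replicates differed in rank and not in place.

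The other 5 of the first 10 were weaker and lay in both the centre and the right arm. The strongest peak of the centre, at 7529039 to 7529527, had q = 3.23e-13 and numbers 106 and 97. In the centre, the peak at 9284020 to 9284338 had q = 4.94e-08 and numbers 76 and 247. The peak at 8481116 to 8481465 had q = 2.51e-08 and stood at 101 in replicate 1 but 4922 in replicate 2. In the right arm, the peak at 10388231 to 10388583 had q = 1.95e-08 and numbers 112 and 39. The peak at 13460644 to 13461202 had q = 2.63e-09 but overlapped only weak replicate 1 peaks, the best being number 6584, and no replicate 2 peak. It lay next to the much stronger peak that starts at 13461810.

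**Figure D1:**
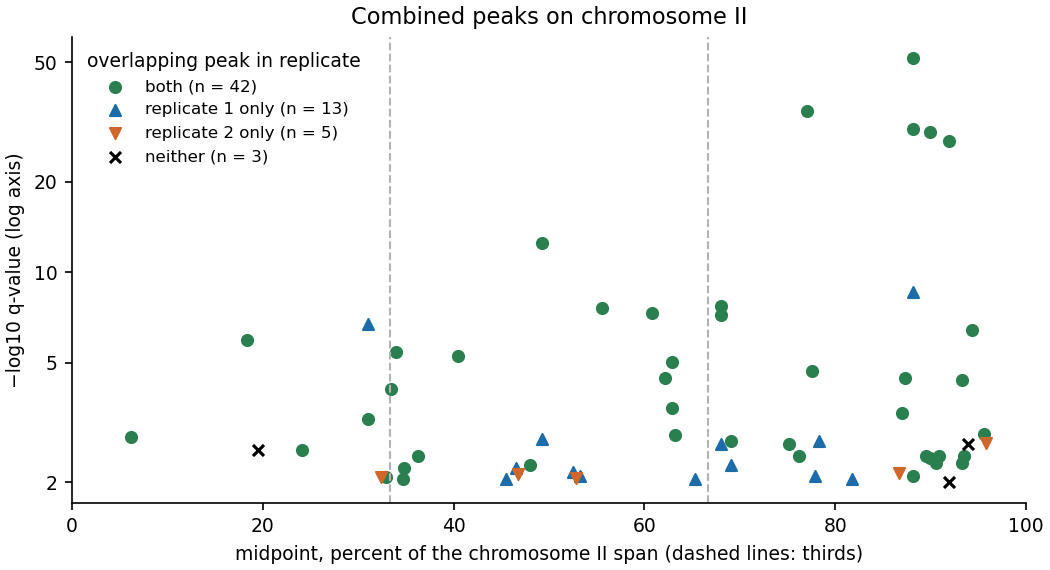
Each point is 1 of the 63 combined peaks on II, by its midpoint as a percent of the span and its −log10 q-value on a log axis; shape and colour show in which replicate list an overlapping peak was found. The 5 smallest q-values, from 2.46e-52 to 4.56e-28, all lie in the right arm, and the left arm holds 8 peaks.

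Combined peaks were unevenly spread along II. The left arm held 8 of 63 (12.7%, exact 95% interval 5.65 to 23.5%), the centre 22 (34.9%, 23.3 to 48.0%) and the right arm 33 (52.4%, 39.4 to 65.1%). Intervals here cover counting error and treat peaks as independent, although neighbours cluster. On the other autosomes the right arm held 42 of 220 combined peaks (19.1%, 14.1 to 24.9%), with 19.4% on I, 25.0% on III, 15.7% on IV and 18.3% on V. Their centres held 53.6% and their left arms 27.3%. The difference between II and these autosomes was not tested. The interval of the right-arm share on II did not overlap the pooled interval of the other autosomes, but it met that of III alone (13.6 to 39.6%).

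The right-arm share was similar among stronger and weaker combined peaks. Among the stronger 32 combined peaks of II by q-value, 17 were in the right arm (53.1%, 34.7 to 70.9%). Among the other 31, the right arm held 16 (51.6%, 33.1 to 69.8%). Of the 17 peaks with q under 1e-05, the left arm held 2, the centre 6 and the right arm 9. The left arm's smallest q-value was 2.01e-07.

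Replicate members were spread differently from the combined peaks. In replicate 1, 123 of 474 members lay in the left arm (25.9%, 22.1 to 30.1%), 194 in the centre (40.9%, 36.5 to 45.5%) and 157 in the right arm (33.1%, 28.9 to 37.6%). In replicate 2, 115 of 437 lay in the left arm (26.3%, 22.2 to 30.7%), 181 in the centre (41.4%, 36.8 to 46.2%) and 141 in the right arm (32.3%, 27.9 to 36.9%). The replicates thus gave nearly the same shares, with means of 41.2% ± 0.347 in the centre and 32.7% ± 0.606 in the right arm (SD, n = 2). Background peaks on II gave 29.4% and 29.8% in the left arm, 39.5% and 39.7% in the centre, and 31.1% and 30.5% in the right arm. The member shares in the centre and right arm were near this background. On the other autosomes, peaks numbered 3000 or lower were 27.3% and 26.2% in the left arm, 48.3% and 47.8% in the centre, and 24.3% and 25.9% in the right arm of replicates 1 and 2. The centre of II thus held a smaller share of members than the pooled centres of the other autosomes, and its right arm a larger one, in both replicates. These differences were not tested. Peaks numbered over 3000 were not divided by part on the other autosomes, so whether the difference is particular to members is not known. In the left arm of II the member shares were lower than the background in both replicates, and the background share lay within the members' interval in each.

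**Figure D2:**
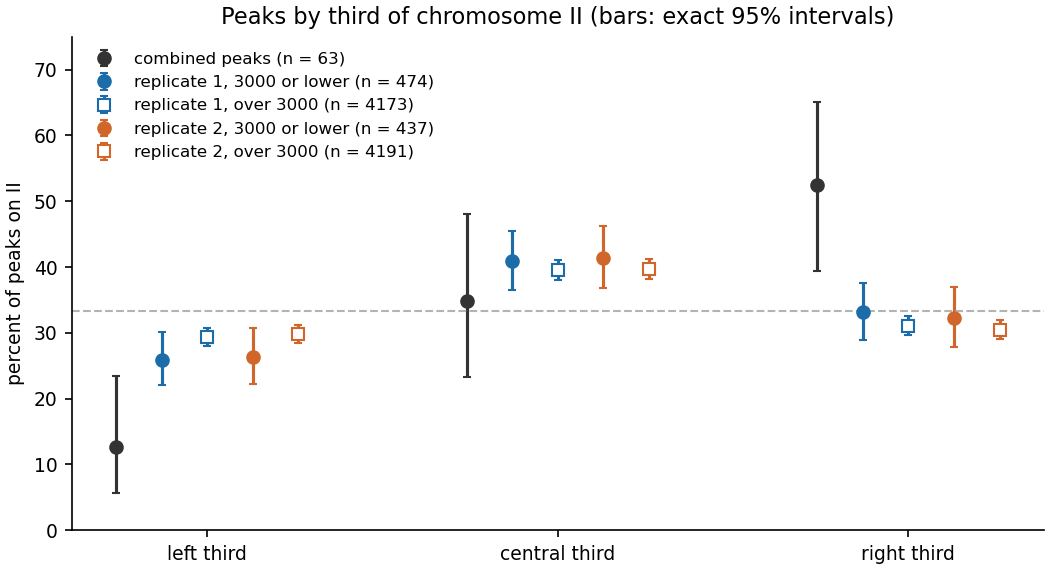
Percent of peaks on II in each of 3 equal parts of the span, with exact 95% intervals, for the combined list and for replicate peaks numbered 3000 or lower (filled) and over 3000 (open); the dashed line is an equal share. Combined peaks reach 52.4% in the right part, while the replicate sets there lie between 30.5% and 33.1%.

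Among replicate peaks, a high right-arm share was seen for the lowest peak numbers. Of the 7 peaks of replicate 1 on II numbered 100 or lower, 5 were in the right arm (71.4%, 29.0 to 96.3%) and 0 in the left arm (interval 0 to 41.0%). In replicate 2, 9 of 17 were in the right arm (52.9%, 27.8 to 77.0%) and 4 in the left arm. From number 101 on, the right-arm share of the classes up to 3000 ranged from 26.0 to 34.3% in replicate 1 and from 30.4 to 35.1% in replicate 2. The first class holds few peaks, and its intervals include the background share in both replicates. Its peaks share the highest score of their list with some peaks of higher number.

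By 1 Mb bins, the interval from 13000001 to 14000000 held the most combined peaks, 12, followed by the next bin to the right with 9. The median over the 15 full bins was 4 peaks. Together these neighbouring bins held 21 of the 63 combined peaks (33.3%) in the last 14.9% of the span, since the partial bin at the right end held none. The same stretch held 13.5% of members and 13.0% of background peaks in replicate 1, and 13.7% and 12.1% in replicate 2. The combined concentration near the right end was therefore not seen in the full set of members of either replicate. Among replicate 1 peaks on II numbered 100 or lower, numbers 18, 25, 33 and 45 lay in this stretch. Numbers 63, 76 and 90 lay outside it. In replicate 2, numbers 18, 30, 33, 34, 41, 69, 70 and 80 lay in it. Numbers 39, 68, 76, 79, 82, 84, 93, 95 and 97 lay outside it. Whether these few peaks were concentrated there was not tested. The bin from 1000001 to 2000000 held no combined peak. The longest stretch without one lay from 953281 to 2802944, between peaks whose midpoints were 1.85 Mb apart. The bin from 12000001 to 13000000, beside the fullest bins, held 1.

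Replicate members ranged from 16 to 47 per full bin in replicate 1 and from 13 to 39 in replicate 2. Replicate 1 had most, 47, from 11000001 to 12000000, where replicate 2 had 37. Replicate 2 had most, 39, from 8000001 to 9000000, where replicate 1 had 46. The fewest were 16 from 1000001 to 2000000 in replicate 1 and 13 from 2000001 to 3000000 in replicate 2. Each list thus had its fullest bin between 8000001 and 12000000 and its emptiest between 1000001 and 3000000. Counts also dropped from 12000001 to 13000000, to 22 in replicate 1 and 18 in replicate 2. The bin from 13000001 to 14000000, the fullest in combined peaks, held 31 members in replicate 1 and 19 in replicate 2. The medians per full bin were 31.0 and 32.0. Members made up 7.02 to 13.9% of all peaks per full bin in replicate 1 and 5.51 to 12.5% in replicate 2.

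Member counts of the replicates followed each other across the 15 full bins (Spearman rho = 0.881, Pearson r = 0.830). They also followed the background counts of the same list (rho = 0.850 in replicate 1 and 0.862 in replicate 2). Combined counts followed the members with rho = 0.602 in replicate 1 and 0.422 in replicate 2. They followed the background less closely (rho = 0.391 and 0.260). Combined counts were small, from 0 to 12 per full bin, and how far this lowered rho was not tested. These values describe bins of 1 chromosome in the same libraries and carry no test. Bins share whatever varies along the chromosome, such as mappable length and base composition, whose part was not tested.

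**Figure D3:**
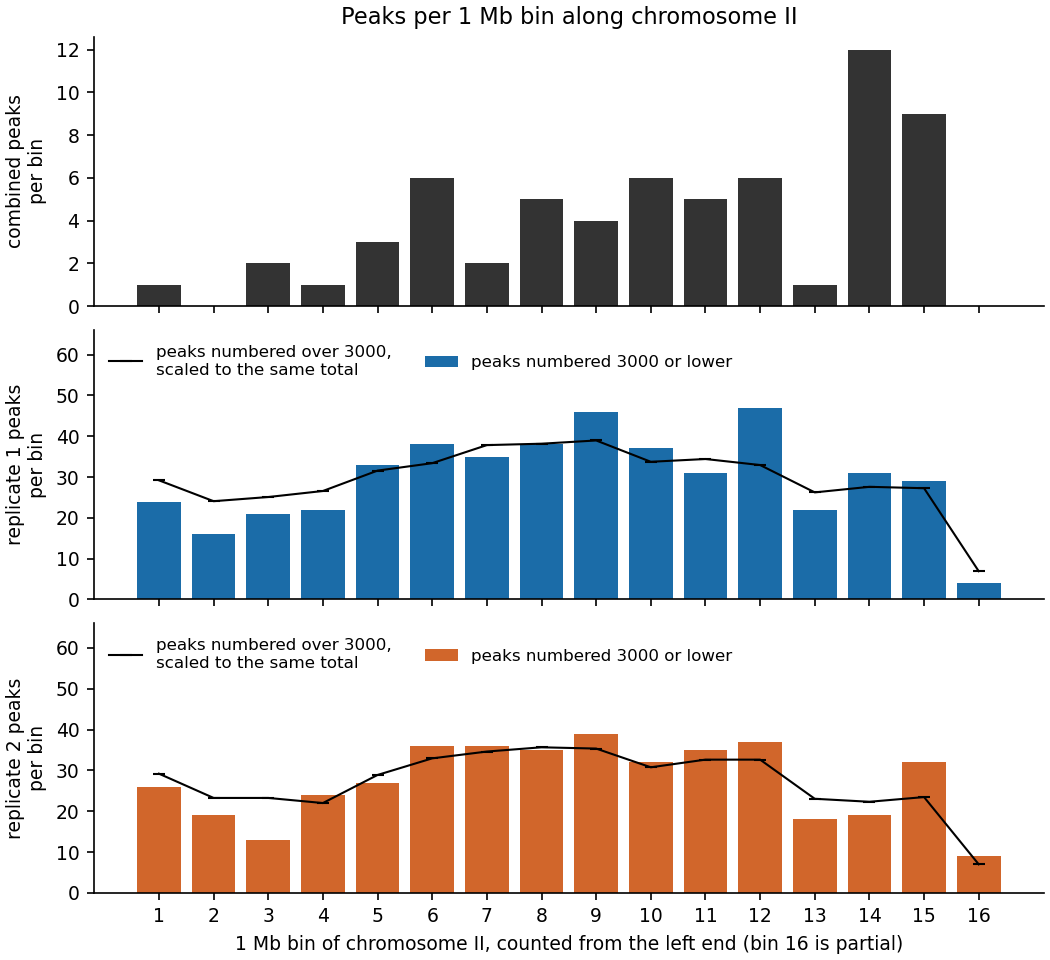
Number of peaks per 1 Mb bin of II from the left end for the combined list and for the members of each replicate (bars), with peaks numbered over 3000 scaled to the same total (lines). Combined peaks are most frequent in bins 14 and 15, with 12 and 9, whereas replicate members follow the scaled background more closely.

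Most combined peaks on II had a peak in both replicate lists, but often a weak one. Both replicates had an overlapping peak, by 1 bp or more, at 42 of 63 (66.7%, 53.7 to 78.0%), beside 69.4% over all chromosomes. Replicate 1 had one at 55 (87.3%, 76.5 to 94.4%; 86.4% over all chromosomes) and replicate 2 at 47 (74.6%, 62.1 to 84.7%; 78.3% over all chromosomes). The shares on II were therefore near those of the whole list. All peaks of replicate 1 on II covered 14.1% of the span and those of replicate 2 covered 14.4%, so some of these overlaps may be by position alone.

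Fewer combined peaks were at replicate members. Members of both replicates were found at 19 of 63 (30.2%, 19.2 to 43.0%), beside 36.1% over all chromosomes. Replicate 1 alone had a member at 14 (22.2%, beside 22.5% over all chromosomes) and replicate 2 alone at 5 (7.94%, beside 12.9%). At 25 neither had one (39.7%, 27.6 to 52.8%), beside 28.5% over all chromosomes. That share lay within the interval of II. The shares with members of both were 1 of 8 in the left arm, 7 of 22 in the centre and 11 of 33 in the right arm.

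Agreement was higher at the stronger combined peaks. Of the 32 with the smallest q-values, 27 had a peak in both replicates (84.4%, 67.2 to 94.7%) and 15 had members of both. Of the other 31, 15 had a peak in both (48.4%, 30.2 to 66.9%) and 4 had members of both. The stronger peaks were also wider, with a median of 322 bp against 178 bp, and a wider peak has more room to overlap. How far width accounts for the higher agreement was not tested. The same split was not made over all chromosomes, so the difference cannot be called particular to II. The combined and replicate lists come from the same study, so they are not independent of each other.

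Some combined peaks with small q-values stood far down the replicate lists, and these were picked after their values were seen. The peak at 4745272 to 4745588, with the left arm's smallest q-value of 2.01e-07, overlapped only number 22562 in replicate 1 and nothing in replicate 2. The peak at 2802944 to 2803270 (q = 1.18e-06) overlapped number 24919 in replicate 1 and 21157 in replicate 2. Among the stronger 32 combined peaks, 8 were at no member of either replicate (25.0%), beside 28.5% of all combined peaks over all chromosomes. The combined list and the replicate lists were thus ordered differently at these regions.

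At the 42 combined peaks found in both replicates, the peak numbers of the replicates were related across peaks (Spearman rho = 0.633, a description over peaks of the same libraries). They were within 3-fold of each other at 19 and differed by over 10-fold at 13. Replicate 1 had the lower number at 29 and replicate 2 at 12, with 1 equal. The q-value order followed the peak number with rho = 0.485 in replicate 1 (55 peaks) and 0.641 in replicate 2 (47 peaks).

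The largest ratios of peak numbers ran in both directions. At 9493642 to 9493936 (q = 3.44e-05) replicate 2 had peak number 76 and replicate 1 had 11119. At 11841746 to 11841958 (q = 2.02e-05) the numbers were 119 in replicate 2 and 16077 in replicate 1. The peak at 8481116 to 8481465, described above, was number 101 in replicate 1 and 4922 in replicate 2. In the first pair of regions the replicate midpoints lay 2 bp and 0 bp apart, so the calls coincided in place despite the difference in rank.

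**Figure D4:**
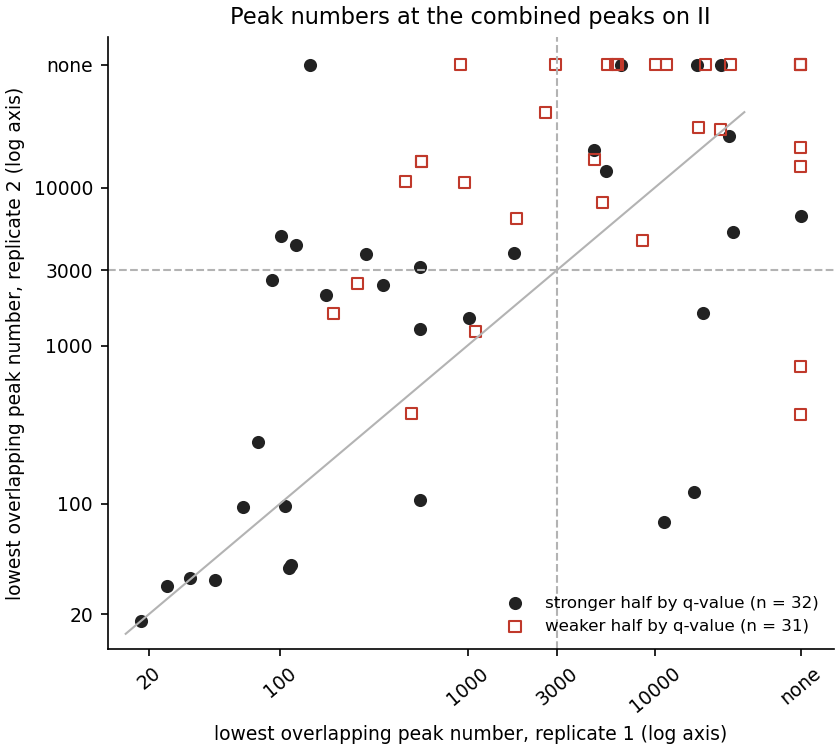
For each combined peak on II, the lowest number of an overlapping peak in replicate 1 (x axis) and replicate 2 (y axis), on log axes; "none" marks no overlapping peak, the dashed lines mark number 3000 and the solid line equal numbers. The 3 peaks found in neither list share 1 point at the upper right, and the 4 regions with numbers from 18 to 45 lie at the lower left.

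No peak of either replicate overlapped 3 of the 63 combined peaks (4.76%), beside 4.80% over all chromosomes. The peak at 14042257 to 14042381 (q = 0.00985, the largest on II) lay 520 bp from the replicate 1 peak number 33 and 339 bp from the replicate 2 peak number 34, beside one of the strongest regions. The peak at 2974024 to 2974082 (q = 0.00275) lay 581 bp from replicate 1 peak number 6012 and 1842 bp from replicate 2 peak number 28087. The peak at 14337868 to 14338470 (q = 0.00208) lay 7468 bp and 1246 bp from the nearest replicate peaks. It was 603 bp wide, the widest of the 31 weaker peaks.

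The widest combined peak on II was also the strongest, at 980 bp. The narrowest were single-base entries at 5322089, 7102615 and 8128470, with q-values of 0.00578, 0.00582 and 0.00788. Of all 63 combined peaks, 8 were narrower than 100 bp. Only the first of the single-base entries had an overlapping peak in both replicates, numbers 467 and 10983.

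Replicate members overlapped each other more often than background peaks did, but most had no counterpart among the other replicate's members. Of 474 replicate 1 members, 55 overlapped a replicate 2 member (11.6%, 8.86 to 14.8%), beside 11.9% over all chromosomes and 4.10% of replicate 1 background peaks on II. Of 437 replicate 2 members, 57 overlapped a replicate 1 member (13.0%, 10.0 to 16.6%), beside 12.2% over all chromosomes and 4.84% of replicate 2 background peaks on II. The members of II thus agreed about as often as those of the whole list. With any peak of the other list counted, the shares were 45.8% and 45.1% for members and 35.0% and 35.1% for background.

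The rate of agreement was highest at the lowest peak numbers, although most overlapping members had higher numbers: replicate 1 had 33 of its 55 numbered over 1000, and replicate 2 had 30 of its 57. All 7 replicate 1 peaks on II numbered 100 or lower overlapped a replicate 2 member (100%, 59.0 to 100%). The share was 17.9% for numbers 101 to 396, 8.33% for 397 to 1000 and 9.94% for 1001 to 3000. In replicate 2, 9 of 17 peaks numbered 100 or lower overlapped a replicate 1 member (52.9%, 27.8 to 77.0%), followed by 16.2%, 13.3% and 10.2% in the same classes. Beyond the first class, most members of each list had no member of the other at the same place. Overlap by class was not computed over all chromosomes, so this order cannot be called particular to II. Replicate 1 peaks on II up to number 260, and replicate 2 peaks up to number 422, were tied at the highest score of their list. Among such peaks the classes differ in peak number and not in score.

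**Figure D5:**
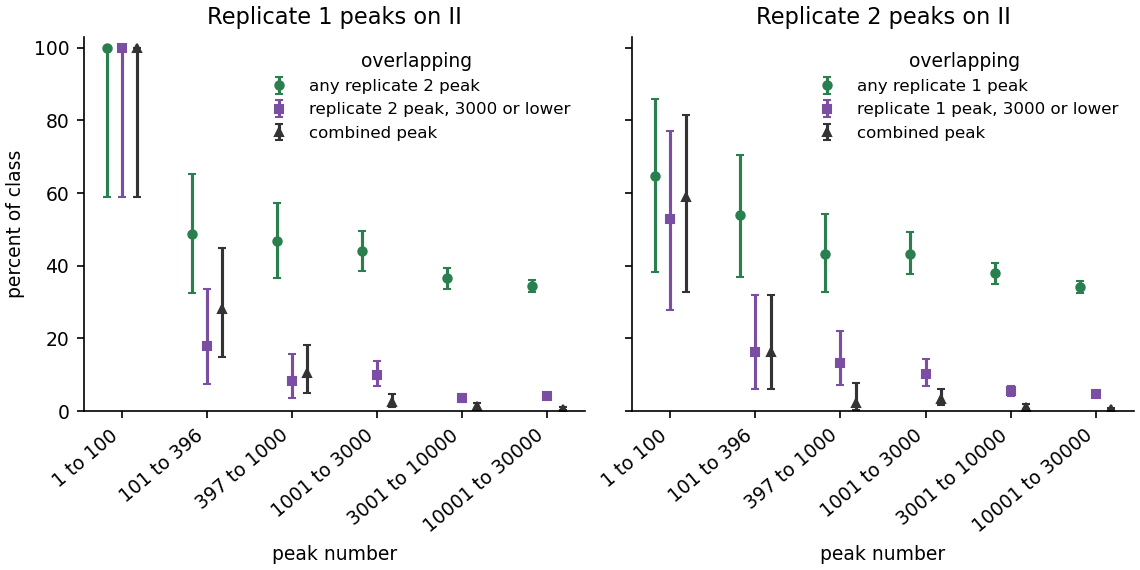
Percent of replicate 1 peaks (left) and replicate 2 peaks (right) on II that overlapped any peak of the other replicate, a peak of the other replicate numbered 3000 or lower, or a combined peak, by class of peak number, with exact 95% intervals. The first class holds 7 and 17 peaks, and all 7 of replicate 1 overlapped all 3 kinds.

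By position, member agreement was lowest in the left arm and highest in the right arm in both replicates. It was 8 of 123 in the left arm (6.50%, 2.85 to 12.4%), 22 of 194 in the centre (11.3%, 7.24 to 16.7%) and 25 of 157 in the right arm (15.9%, 10.6 to 22.6%) for replicate 1. For replicate 2 it was 8 of 115 (6.96%, 3.05 to 13.2%), 21 of 181 (11.6%, 7.33 to 17.2%) and 28 of 141 (19.9%, 13.6 to 27.4%). Both replicates gave the same order, as they must in part, since an overlap is counted from both sides. The intervals of neighbouring parts overlapped, and those of the left and right arms overlapped in replicate 1 but not in replicate 2. Overlap by part was not computed for background peaks or other chromosomes, so the order cannot be called particular to these members.

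Matching members one to one gave 51 pairs, of which 20 were at a combined peak. The 20 had median peak numbers of 145 and 212 in replicates 1 and 2 and a median midpoint distance of 35.0 bp. The other 31 had median numbers of 1621 and 1456 and a median distance of 131 bp. Pairs at combined peaks thus had lower peak numbers and lay closer in position. Peak number also chose the members, and all lists come from the same study, so this is a description only. By part, 12 of the 20 pairs at a combined peak and 12 of the other 31 lay in the right arm. Of the 12 pairs with both numbers 1000 or lower, 11 were at a combined peak. The exception, picked after its values were seen, was in the centre at 5833797 to 5834440, with numbers 820 and 738.

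Few members were at combined peaks overall. In replicate 1 there were 36 of 474 (7.59%, 5.38 to 10.4%), beside 8.53% over all chromosomes and 0.839% of background peaks on II. In replicate 2 there were 28 of 437 (6.41%, 4.30 to 9.13%), beside 7.30% over all chromosomes and 0.716% of background peaks on II. By part, the shares were 2.44%, 6.19% and 13.4% in the left arm, centre and right arm for replicate 1, and 1.74%, 6.08% and 10.6% for replicate 2. The order of the parts was that of the combined peaks themselves.

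Some low-numbered peaks of replicate 2 on II had no counterpart. Of 17 numbered 100 or lower, 7 had no combined peak (41.2%, 18.4 to 67.1%), beside 30.0% over all chromosomes. Of these, 6 also overlapped no peak of replicate 1 (35.3%, 14.2 to 61.7%), beside 13.0% over all chromosomes (13 of 100, with these 6 included). The first interval includes the share over all chromosomes and the other does not, with 17 peaks in each. The 6 lay in all parts of II, at 39026 to 39545 (number 93), 3664023 to 3664542 (82), 4275858 to 4276377 (84), 9024758 to 9025277 (68), 13030807 to 13031326 (69) and 13665328 to 13665847 (70). The seventh, at 3516685 to 3517204, was number 79 and overlapped number 7717 of replicate 1. All 7 of replicate 1's peaks in this class had a combined peak, where 11.0% over all chromosomes had none. The 4 left-arm peaks of replicate 2 in this class were all among the 7 without a combined peak.

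Scores of the strongest members were tied at the highest value of each list. This value was 2.72 in replicate 1, shared by 32 members on II, and 2.46 in replicate 2, shared by 56. No label or header states what the score measures. At the limit of 3000, the last member of replicate 1 on II was number 2995 at 6329771 to 6330274 with a score of 0.823, and the next peak was number 3005 at 12516691 to 12517194 with 0.820. In replicate 2 these were number 2978 at 9121130 to 9121649 with 0.912 and number 3008 at 4165074 to 4165593 with 0.901. Peaks just inside and just outside the limit thus had nearly equal scores.

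Part of the combined peaks lay in clusters. Joining peaks within 10 kb gave 51 loci, of which 42 held a single peak and 9 held 2 or more, with 21 peaks among them. The right arm had 6 of these 9 clusters, the centre 2 and the left arm 1. By loci the right arm held 24 of 51, the centre 20 and the left arm 7.

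The cluster with the most combined peaks was in the right arm at 13460644 to 13469984, with 4 peaks in 9.34 kb. It held the peaks ranked 1 and 3 by q-value on II and 2 weaker ones, the weakest with q = 0.00788, and 3 of the 4 were found in both replicates. Replicate 1 had 4 members there and replicate 2 had 3. A cluster of 3 at 10388231 to 10390715, in 2.48 kb, had a best q-value of 1.95e-08, with 2 members of replicate 1 and 3 of replicate 2. The other 7 clusters were pairs. Of these, the pair at 13736518 to 13738260 had the smallest q-value, 4.96e-30, with 1 member in each replicate.

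Many replicate members also lay within 10 kb of another member. The same count was not made for background peaks or for other chromosomes. Whether members lay closer together than their density alone would bring was not tested. Joined in the same way, the 474 members of replicate 1 formed 309 loci, with 260 members in the 95 loci of 2 or more. The 437 members of replicate 2 formed 303 loci, with 225 members in 91. Within a list, 62 members of replicate 1 and 56 of replicate 2 overlapped another member, so some loci are neighbouring calls over the same place. The fullest locus of replicate 1, at 13442896 to 13472662, held 8 members over 29.8 kb and contained the strongest cluster of combined peaks. The next, at 6833873 to 6859445 in the centre, held 7 members, the best being number 109, but no combined peak and only 1 member that overlapped a replicate 2 member. The fullest locus of replicate 2, at 5819830 to 5845359, held 6 members and no combined peak. A locus of 5 at 10387923 to 10399553 in replicate 2 had 3 members at combined peaks. Loci with many members of 1 replicate were thus found both with and without a combined peak.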

How the data were processed

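ChIP-seq peak lists were analysed for the 2 ChIP samples; the 2 input samples have no values here. Per the file headers, all lists use WormBase WS220. The combined list names PeakSeq as its source and gives a deposited q-value per peak; the replicate lists name spp_via_IDR and give a deposited score of unstated scale and a peak number. Whether replicates were pooled, and the aligner, controls and filters, are stated nowhere in these sources. The depth of the libraries is unknown, so peaks missing from a list cannot be called unbound.

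Peak numbers were used for ranking, since the highest scores are tied. Overlap meant 1 bp or more. Parts of II were assigned by midpoint, 1 Mb bins counted from base 1, and peaks within 10 kb joined into loci. Shares carry exact Clopper-Pearson 95% intervals, and no test was made over regions. Interval code was checked on made-up intervals with known answers. Calculations used Python 3.11.15 (pandas 2.3.3, numpy 2.4.6, scipy 1.17.1), and plots used matplotlib 3.10.9.

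The members and lists were chosen with earlier results of these data known. By rule the text names, on II, the first 10 combined peaks by q-value, the widest and narrowest, those in neither replicate, the 3 largest ratios of peak numbers, the 3 fullest loci, replicate peaks numbered 100 or lower without a combined peak, peaks beside the limit of 3000, and the fullest and emptiest bins. No annotation or genome of WS220 was used, so no genes or sequences are given. Alternatives covered overlap, the number limit, width, strength, merging, bins and each replicate left out.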

Additional observations from a re-analysis of the deposited data

How the results depend on the processing

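No paired analysis was possible because no result came from a test and the input samples that share replicate numbers have no values here. Of 50 alternatives over 12 results, 31 stayed within the interval, the SD or 1.5-fold of the reported value. For means over the 2 replicates, leaving 1 replicate out stays within the SD by construction. Those alternatives are among the 31 and show nothing about stability. A 50% reciprocal overlap lowered the combined peaks found to 30.2% in replicate 1, 33.3% in replicate 2 and 27.0% in both; 39 of the 63 are too narrow to reach it against a replicate peak of usual width. It lowered member agreement to 7.59% and 8.92%. Counting members only gave 52.4%, 38.1% and 30.2%, and the stronger 32 combined peaks by q-value gave 96.9%, 87.5% and 84.4%; the cause of the latter was not tested. With 1 replicate left out, the share found ranged from 74.6 to 87.3%, the members in the centre from 40.9 to 41.4%, those in the right arm from 32.3 to 33.1%, and II's share of members from 14.6 to 15.8%. Taking the centre as the middle 50% of the span raised the shares there to 49.2% for combined peaks and 59.0% for members, by construction. Members numbered 1500 or lower and 6000 or lower gave 40.7% and 42.6% in the centre, and 32.7% and 30.7% in the right arm. The 32 strongest combined peaks formed 26 loci with at most 6 in a bin, by construction. All right-arm alternatives, and the central share at combined peaks found in both replicates (33.3%), were chosen after seeing the data. The right-arm share of combined peaks ranged from 44.4% (last 25% of the span) to 56.4% (peaks of 100 bp or wider).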
